A study of Mus musculus with 107 samples.

Results

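SPARC family genes encode matricellular proteins, which are secreted into the extracellular matrix but act on cells and on matrix assembly rather than as structural fibers. The genes described here are Sparcl1, Sparc, Spock1, Spock2, Smoc1, Smoc2 and Fstl1, which are 7 of the 50686 genes in the deposited expression table. They were taken by gene symbol, and they were selected on measured values: the high Sparcl1 level of the melanoma model B16-F10 was known when the family was chosen, so the levels between models are given as a description without a test. The family was followed over 12 mouse syngeneic tumor models and 3 groups of tumors.

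RNA was sequenced from tumors of cancer cell lines implanted under the skin of the right flank, in mice aged 7 weeks. Treatment-naïve tumors (Base in the labels, 35 tumors) were collected at a volume of about 100 mm3, and tumors without treatment (NT, 36 tumors) or given lenvatinib (LEN, 36 tumors) were collected on day 8. LEN, an oral inhibitor of VEGF receptors, FGF receptors and other receptor tyrosine kinases, was given daily at 10 mg/kg for 7 days. Each model had 3 tumors from different mice in each group, except for treatment-naïve MC38 with 2. The liver models were Hepa 1-6 in C57L/J mice and BNL 1ME A.7R.1 (called BNL here) in BALB/cAnNCrlCrlj mice. The same BALB/c strain carried the renal lines RAG, used as in vivo adapted cells, and Renca, the breast lines 4T1 and EMT6 and the colorectal line CT26.WT. The colorectal line MC38 and B16-F10 were grown in C57BL/6NCrl mice, the lung lines LL/2 in C57BL/6JCrl and KLN205 in DBA/2NCrl mice, and the bladder line MBT2 in C3H/HeNCrl mice. Hosts of the liver models were male and all others female. A tumor of this kind holds the cancer cells of a single line together with vessels, fibroblasts and immune cells of the host, and in bulk RNA fewer cells of a type and less RNA per cell cannot be told apart.

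SPARC binds collagens and calcium, and it is made by fibroblasts, endothelial cells, pericytes and many tumor cells, where it acts in collagen assembly and cell adhesion. SPARCL1, also called hevin, is its closest relative and is known as a product of vessels, with an antiadhesive action on cells. The testicans (SPOCK proteins) are proteoglycans that inhibit proteases, the SMOC proteins bind calcium and antagonize BMP signaling, and FSTL1 is a follistatin-like glycoprotein of mesenchymal cells that binds BMP ligands.

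Sparcl1 lies at chr5:104079111-104113733 on the minus strand (GRCm38, GENCODE M21 annotation) and Sparc at chr11:55394500-55423183 on the minus strand. Their coding sequences, of 1953 and 909 bases, could be aligned over 562 bases, of which 383 (68.1%) were identical. A window of 120 coding bases from the aligned stretch is shown to let the likeness of the genes be read from their letters. It covers coding bases 1367 to 1486 of Sparcl1 and 326 to 445 of Sparc, read from the GRCm38 transcripts, and the 29 bases that differ are in capitals.
Sparcl1: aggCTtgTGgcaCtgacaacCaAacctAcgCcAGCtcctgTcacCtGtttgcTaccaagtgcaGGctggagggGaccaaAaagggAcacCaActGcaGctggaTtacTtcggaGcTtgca
Sparc: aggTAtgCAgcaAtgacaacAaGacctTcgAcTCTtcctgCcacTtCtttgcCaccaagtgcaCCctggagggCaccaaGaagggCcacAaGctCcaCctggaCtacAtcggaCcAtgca
The other 91 bases of the window (75.8%) were identical. The longest run of coding bases shared by the pair was 14 bases, against 33 for Smoc1 and Smoc2 and 19 for Spock1 and Spock2.

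TPM, the scaled share of transcripts in a library, corrects for transcript length, so levels may be compared between genes, but it holds no sequencing depth and the counting error of each value is unknown. Protein-coding genes took between 27.5% and 66.6% of a tumor's TPM, with a median of 51.4%, and the lowest share belonged to 4T1 LEN replicate 4. Without that tumor the mean LEN effects given below were -0.63 for Sparcl1 and -0.27 for Sparc on the log2 scale, and the number of family genes called stayed at 2. Summed over 8 melanocyte genes, B16-F10 tumors held 10223 to 11897 TPM, and no tumor of another model held more than 492. Summed over 6 hepatocyte genes, Hepa 1-6 held 3887 to 5549 TPM but BNL, which is also labelled as a liver line, held only 9.36 to 110, with Ttr, a plasma carrier protein of hepatocytes, at 0 in its treatment-naïve and NT tumors.

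Sparcl1 stood highest in B16-F10 among treatment-naïve tumors, and in B16-F10 and BNL among day 8 tumors. The 3 treatment-naïve B16-F10 tumors held 108, 113 and 117 TPM, the NT tumors 123, 131 and 137 TPM, and the LEN tumors 148, 149 and 154 TPM. The treatment-naïve mean of 113 ± 4.81 TPM (SD, n = 3) was 5.73 times the median of 19.6 TPM over the other 11 models, and the next model was BNL with 76.96 ± 4.18 TPM. This lead over BNL, 0.54 on the log2 scale, was 0.34 after rescaling by the upper quartile and 0.23 after rescaling over protein-coding genes. BNL was above B16-F10 on day 8, with means of 285 ± 34.8 TPM in NT and 248 ± 20.1 TPM in LEN tumors against 130 ± 7.12 and 151 ± 3.34 TPM. B16-F10 thus ranked 2 of 12 in NT and in LEN tumors, and its LEN mean was 18.3 times the median of 8.22 TPM over the other 11 models. Below B16-F10 and BNL, the treatment-naïve order was RAG (34.9 TPM), Renca (30.2), EMT6 (26.1), KLN205 (24.8), 4T1 (19.6), MBT2 (17.9), Hepa 1-6 and LL/2 (both 16.2), CT26.WT (10.5) and MC38 (9.34). In that order only 3 of the 11 neighboring pairs differed by more than the larger SD, namely B16-F10 and BNL, BNL and RAG, and LL/2 and CT26.WT. Among NT tumors the lowest model was LL/2 (7.92 ± 1.35 TPM), and among LEN tumors again LL/2 (3.34 ± 0.112 TPM), and the number of neighboring pairs that differed by more than the larger SD was 4 in NT and 7 in LEN. Over all tumors, 83.5% of the variance of log2(TPM + 1) lay between models, 14.6% between the groups of a model and 1.88% between tumors of a group. Melanocyte genes were high only in B16-F10, and whether cancer cells or host cells carried its Sparcl1 was not tested.

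**Figure D1:**
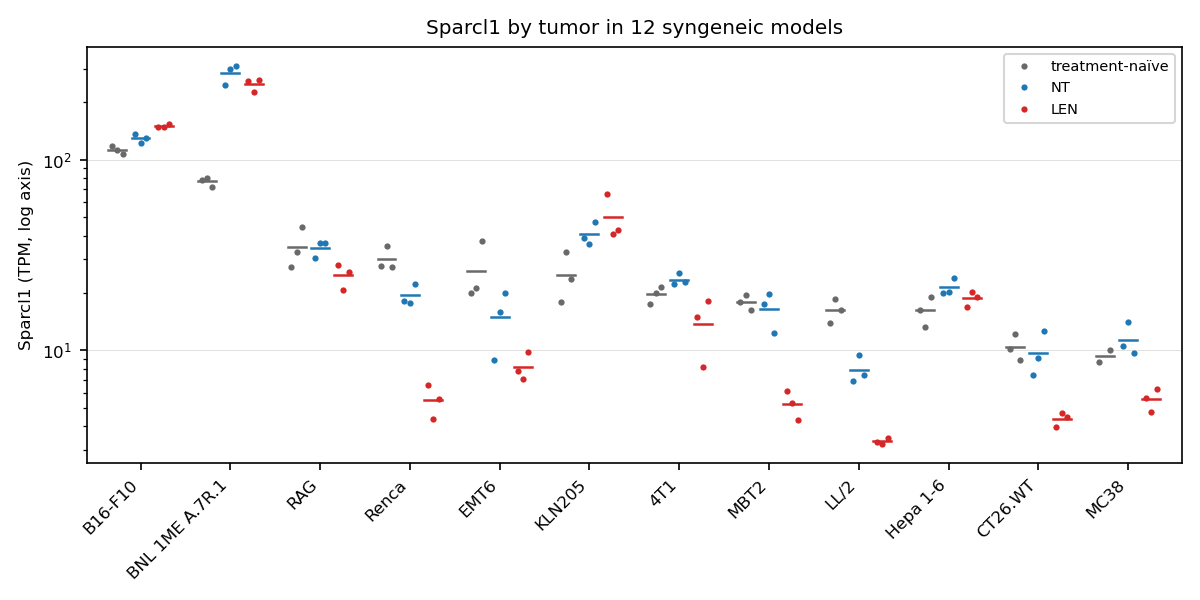
Sparcl1 level (TPM, log axis) in each tumor by model; points are tumors, colored by group, and bars are group means. B16-F10 (means 113, 130 and 151 TPM) and BNL (76.96, 285 and 248 TPM) lie above the other models, and the red LEN points lie below the blue NT points in most of the other models.

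Sparc was the most abundant gene of the family, at 116 TPM or more in every tumor, and Fstl1 came next in most models. Treatment-naïve Sparc was highest in EMT6 (708 ± 101 TPM), followed by BNL (596), Hepa 1-6 (583), Renca (544) and 4T1 (509), and it was lowest in RAG (194) and LL/2 (191). EMT6 and BNL, and 4T1 and the next model, B16-F10 (336 ± 54.6 TPM), were the 2 of 11 neighboring pairs that differed by more than the larger SD. The highest value of the series was 1287 TPM in a BNL NT tumor. Fstl1 ranged from 8.17 to 158 TPM, was highest among treatment-naïve tumors in LL/2 (115 ± 9.70 TPM) and lowest in CT26.WT (17.1 ± 5.96) and RAG (17.4 ± 0.996), and B16-F10 stood low with 29.6 ± 4.80 TPM. On day 8 Fstl1 was highest in BNL (145 ± 14.3 TPM in NT). The model that ranked highest in Sparcl1 thus ranked in the middle for Sparc and toward the low end for Fstl1. Models accounted for 76.9% of the variance of Sparc and 74.5% of that of Fstl1 on the log2 scale.

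**Figure D2:**
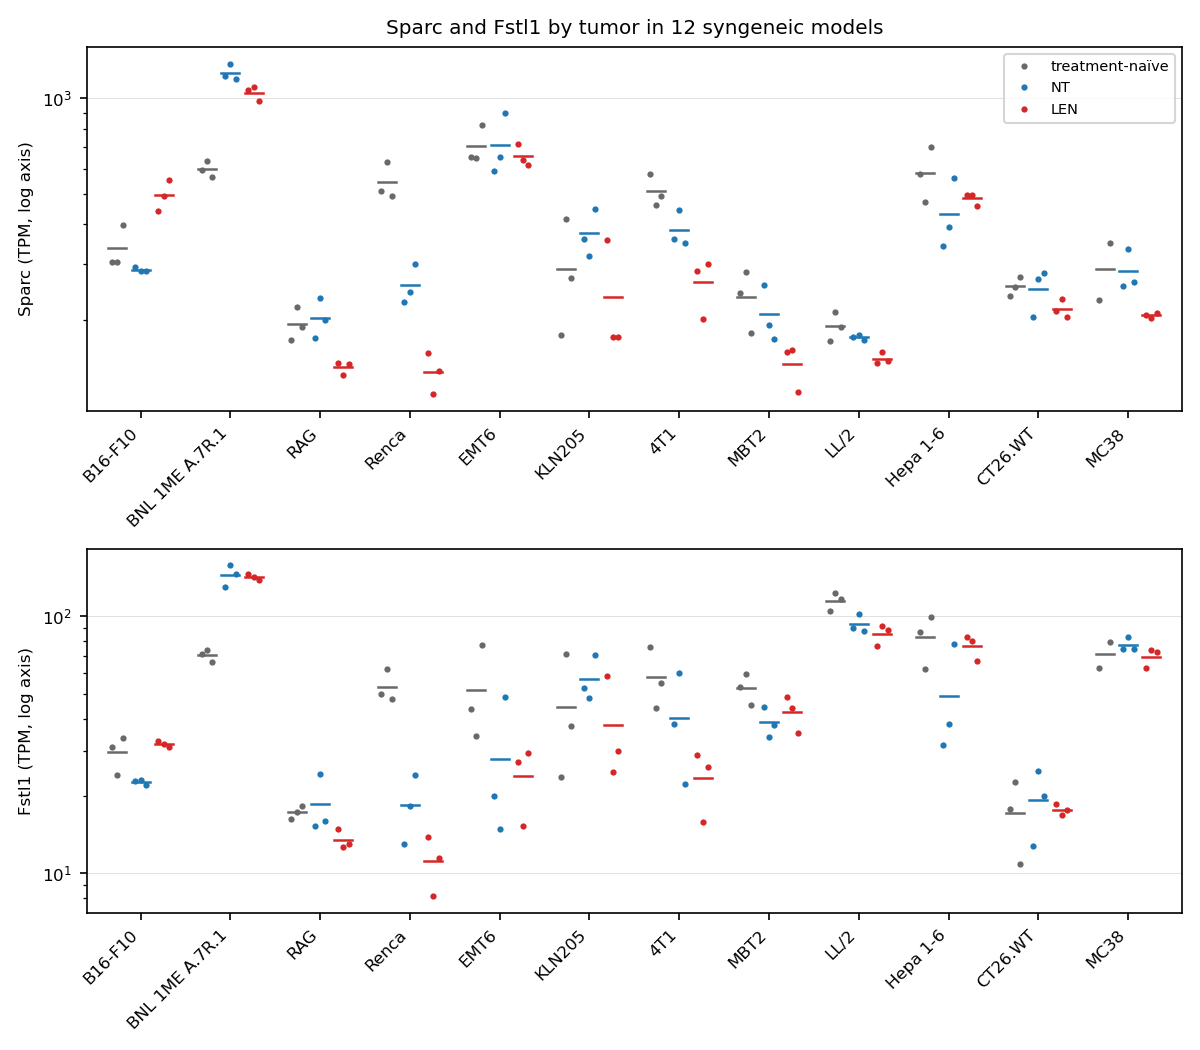
Sparc (top) and Fstl1 (bottom) levels (TPM, log axes) in each tumor by model; points are tumors, colored by group, and bars are group means. B16-F10 is the model whose LEN tumors lie above its NT tumors for both genes (Sparc 440 to 551 against 285 to 292 TPM), and in Renca the treatment-naïve tumors lie above both day 8 groups.

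Promoters are shown for Sparc and Fstl1 because these genes varied together within models, differences between groups included, as described further on. Each is 300 bases of RefSeq sequence on GRCm38.p6, around the start that RefSeq gives the gene, written on the gene's strand. For Sparc that start lies downstream of the outermost start in GENCODE M21, so the window is inside the gene bounds given above. The Sparc promoter lies at chr11:55420031-55420330 on the minus strand, and capitals mark its 3 matches to CANNTG, the letters of an E-box.
Sparc: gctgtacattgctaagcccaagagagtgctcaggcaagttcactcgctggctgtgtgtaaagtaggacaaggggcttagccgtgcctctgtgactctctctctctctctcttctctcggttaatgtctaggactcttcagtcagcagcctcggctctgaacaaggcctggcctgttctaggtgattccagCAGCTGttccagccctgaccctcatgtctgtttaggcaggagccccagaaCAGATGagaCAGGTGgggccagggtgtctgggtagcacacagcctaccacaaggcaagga
The Fstl1 promoter lies at chr16:37776805-37777104 on the plus strand, and capitals mark its 2 matches to GGGCGG, the letters of a GC box.
Fstl1: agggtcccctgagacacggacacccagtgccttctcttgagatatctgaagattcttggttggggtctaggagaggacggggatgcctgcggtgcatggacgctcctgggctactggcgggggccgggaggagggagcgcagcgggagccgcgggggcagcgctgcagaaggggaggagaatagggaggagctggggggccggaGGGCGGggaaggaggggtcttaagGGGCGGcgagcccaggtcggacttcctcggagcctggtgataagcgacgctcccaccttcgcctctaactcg
Of the 32851 promoters in the table, 72.3% held CANNTG and 35.7% held GGGCGG on at least 1 strand. TATAAA (13.6% of promoters) and CCAAT (37.4%) matched neither window, and no motif was found in both. Of the 7 family genes, 4 had a promoter in the table, while Sparcl1, Smoc1 and Smoc2 had none.

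The SMOC and SPOCK genes were low, and their highest levels were in a few models. Smoc1 reached 1 TPM in 56 tumors and Smoc2 in 38. Smoc1 (chr12:81026808-81186414, plus strand) was highest in MC38, with 8.16 and 9.20 TPM in treatment-naïve, 9.58, 9.90 and 10.2 TPM in NT and 9.32, 11.4 and 11.4 TPM in LEN tumors. It was next highest on day 8 in LL/2 and MBT2, at most 0.06 TPM in CT26.WT and exactly 0 in 6 tumors, and 95.8% of its variance lay between models. Smoc2 (chr17:14279506-14404790, plus strand) peaked at 8.24 TPM in a KLN205 NT tumor and did not exceed 0.21 TPM in LL/2. Spock2 (chr10:60106219-60135198, plus strand) reached 1 TPM in only 10 tumors, the 9 BNL tumors and 1 LL/2 NT tumor at 1.25 TPM. Spock1 (chr13:57421195-57908332, minus strand) was at 0 in 67 tumors and reached at most 0.32 TPM, in a RAG NT tumor, so it was too low to be tested in any model. Spock3, the testican outside the rule, was at 0 in 75 tumors and reached at most 0.39 TPM. The levels of these low genes rest on few fragments, and how many cannot be told from TPM.

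**Figure D3:**
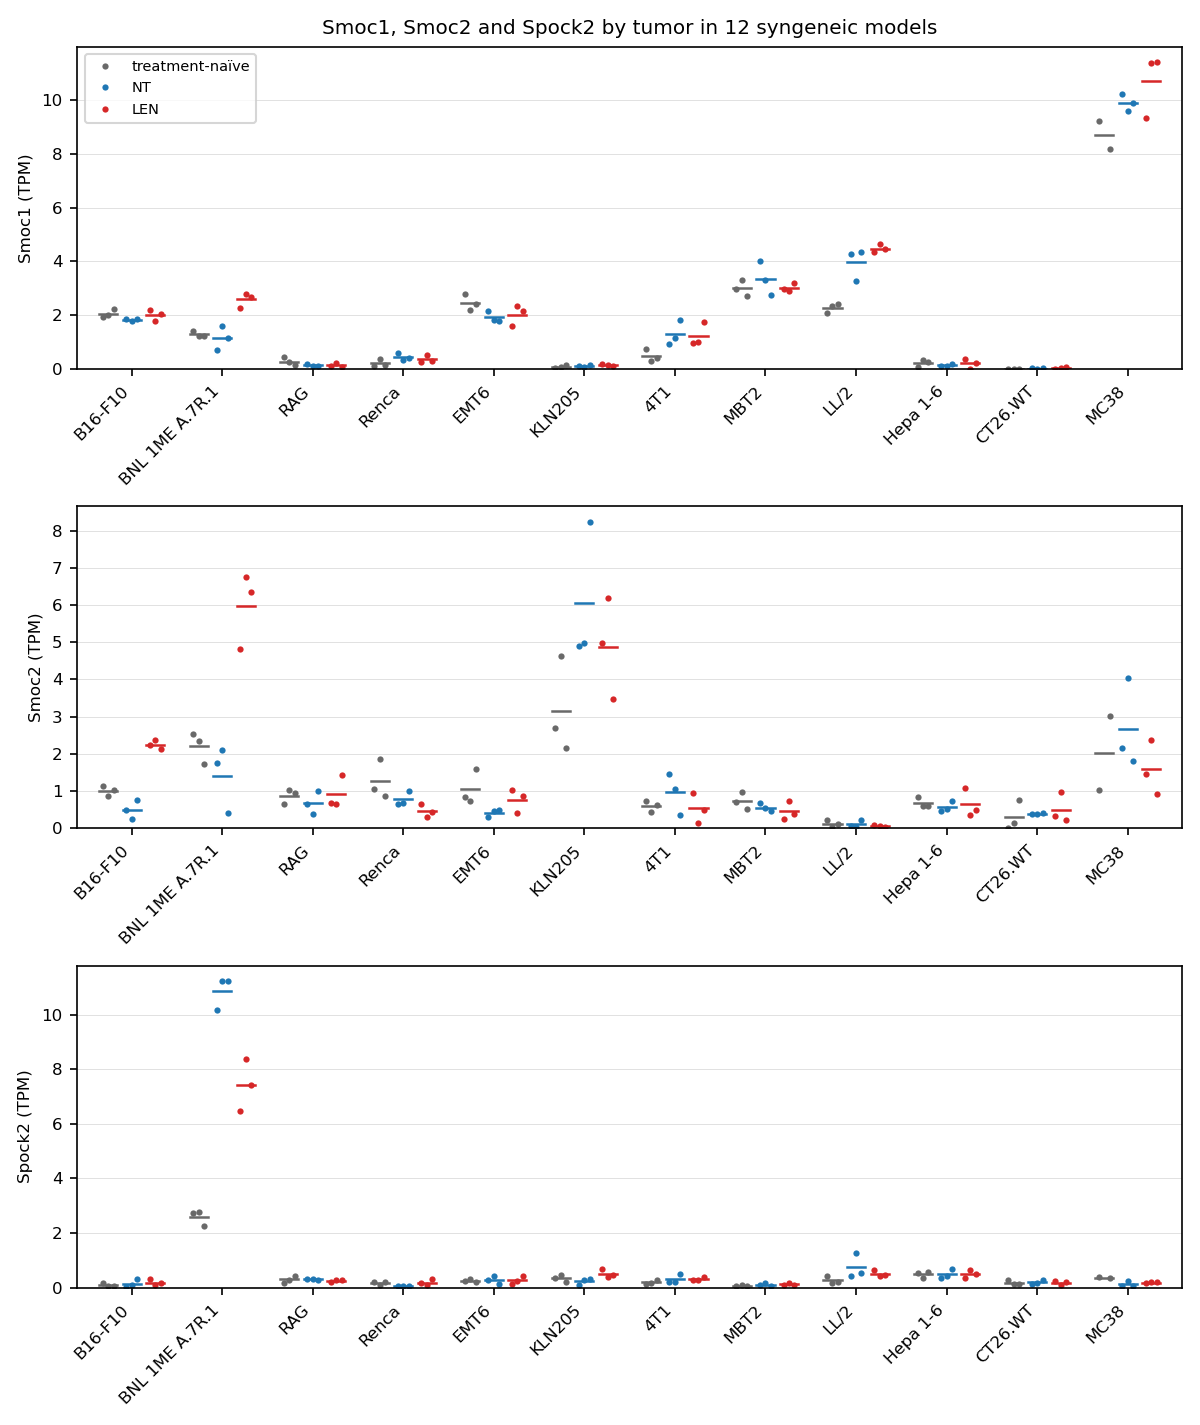
Smoc1, Smoc2 and Spock2 levels (TPM, linear axes from 0) in each tumor by model; points are tumors, colored by group, and bars are group means. Smoc1 is highest in MC38 (8.16 to 11.4 TPM), Smoc2 in KLN205 and in the LEN tumors of BNL (4.82 to 6.76 TPM), and Spock2 in BNL.

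LEN was compared with NT to ask how the family responded to a week of an antiangiogenic drug. Averaged over the 12 models, Sparcl1 and Sparc fell and no family gene rose. Sparcl1 fell by 0.66 on the log2(TPM + 1) scale (SE 0.0584, limma, Benjamini-Hochberg adjusted p = 4.77e-13), which is 0.633 of the NT level on that scale, and its mean was lower with LEN in 10 of the 12 models. Without B16-F10, the model whose Sparcl1 level was known when the family was chosen, it fell by 0.74 (adjusted p = 6.55e-13). Sparc fell by 0.28 (SE 0.0526, adjusted p = 3.2e-05, 0.821 of the NT level), also with a lower mean in 10 models. Of the 17351 genes tested in these 72 tumors, 9.87% were called lower and 13.7% higher at an adjusted p under 0.05. Rescaling by the upper quartile turned this balance from 1712 lower and 2371 higher to 3163 lower and 2279 higher, and rescaling over protein-coding genes to 2807 lower and 2529 higher. Fstl1 (-0.13, SE 0.087, adjusted p = 0.317), Smoc1 (+0.09, SE 0.0373, adjusted p = 0.0778) and Smoc2 (+0.15, SE 0.0695, adjusted p = 0.114) did not pass. Spock2 entered this test only through BNL (-0.01, adjusted p = 0.85), and Spock1 did not enter it. Smoc1 and Smoc2 passed when the 4T1 model was left out (+0.10, adjusted p = 0.0263, and +0.20, adjusted p = 0.0289). Smoc2 also passed without MC38 (+0.21, adjusted p = 0.0214), and Smoc1 without MBT2 (+0.11, adjusted p = 0.042) or without any 1 of 6 tumors (adjusted p 0.032 to 0.0495), namely 4T1 NT replicate 3 and LEN replicate 2, BNL NT replicate 3, Hepa 1-6 LEN replicate 4, MBT2 NT replicate 1 and EMT6 LEN replicate 2. Without BNL both effects were smaller, at +0.028 for Smoc1 (adjusted p = 0.662) and +0.0186 for Smoc2 (adjusted p = 0.891). Fold changes on the log2(TPM + 1) scale understate the change of genes near 1 TPM.

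The response to LEN was not the same in all models. The F test of the difference between models passed for Smoc2 (adjusted p = 1.79e-05), Sparc (5.47e-05) and Smoc1 (0.0167), and not for Fstl1 (0.0791), against 35.3% of all genes tested (limma, Benjamini-Hochberg). For Sparcl1 the test was read without B16-F10, since the family was chosen for Sparcl1 in that model, and it passed over the other 11 models (adjusted p = 2.07e-05), as did 29.8% of all genes. With B16-F10 it gave 4.05e-07, which is a description. Without B16-F10 the adjusted p of Sparc was 0.0378. Spock2 gave 0.0462, but it entered the test only through BNL, where it is high, so nothing is read from that value. The number of family genes under the threshold was 3 without BNL NT replicate 1, BNL LEN replicate 4 or BNL LEN replicate 5. It was 5 with all tumors, which counts Spock2 and the Sparcl1 test that holds B16-F10. In the models fitted alone, 48 of the 84 possible pairs of gene and model had a mean of at least 1 TPM, and 8 of them passed, 3 lower and 5 higher. Of the 5, Smoc2 in B16-F10, reached the minimum only through its LEN tumors, so its call is no support. Over all models and genes the same test called 4.85% of 190482 pairs. The 8 pairs were Sparcl1 and Sparc in Renca and Spock2 in BNL, which fell, and Sparc, Fstl1 and Smoc2 in B16-F10 and Smoc1 and Smoc2 in BNL, which rose. Each model's contrast was also read from the fit of all 72 tumors, which shares 1 estimate of the spread. In that reading 15 of 72 pairs passed, against 7.05% of all pairs in the same contrasts. The 15 hold Spock2 in BNL (adjusted p = 0.00158), from which nothing is read, since Spock2 entered only through BNL. The 72 hold Spock2 in every model and Sparcl1 in B16-F10, which did not pass and is a description. That reading added Sparcl1 in MBT2 (adjusted p = 3.23e-06), LL/2 (0.00218), 4T1 (0.00564), CT26.WT (0.00718), MC38 (0.0191) and EMT6 (0.0333) and Sparc in KLN205 (0.0135) and 4T1 (0.0256), and it lost Fstl1 in B16-F10 (0.413).

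**Figure D4:**
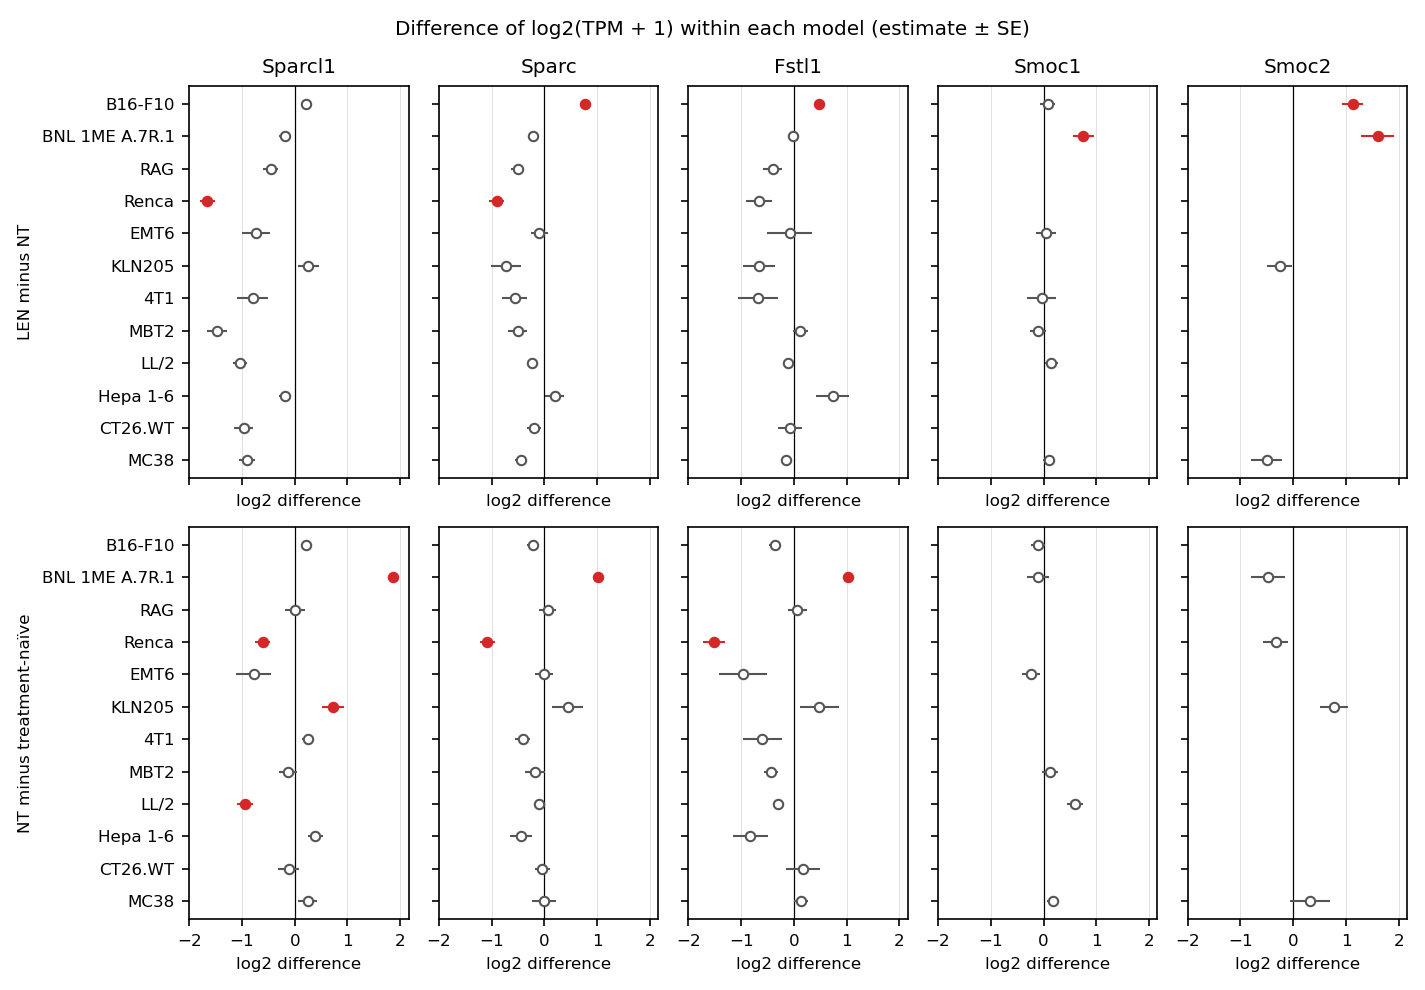
Difference of log2(TPM + 1) in each model fitted alone, LEN minus NT (top) and NT minus treatment-naïve (bottom), for genes with a mean of at least 1 TPM; points are estimates, bars are SE, and filled red points passed an adjusted p of 0.05 (limma). With LEN, Sparcl1 was lower in 10 of 12 models, and Sparc and Fstl1 were called higher in B16-F10. Smoc2 is also red there, but it was tested in B16-F10 only because its LEN tumors were high.

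Sparcl1 fell furthest in Renca, where the LEN mean was 0.284 of the NT mean. The NT tumors of Renca held 17.8, 18.2 and 22.3 TPM and the LEN tumors 4.37, 5.59 and 6.59 TPM (-1.65 on the log2 scale, SE 0.15, adjusted p = 0.00104). The groups did not overlap, and 7.15% of the genes tested in Renca were called lower. In MBT2, NT tumors held 12.3, 17.5 and 19.7 TPM and LEN tumors 4.33, 5.32 and 6.09 TPM (-1.47, SE 0.189, adjusted p = 0.0727). The LL/2 values were 6.90, 7.41 and 9.45 TPM in NT and 3.24, 3.31 and 3.46 TPM in LEN tumors (-1.03, SE 0.131, adjusted p = 0.0569). These 2 models did not pass when fitted alone although every LEN tumor was below every NT tumor. Sparcl1 of the LEN group lay wholly below that of the NT group in 7 models (4T1, CT26.WT, LL/2, MBT2, MC38, RAG and Renca) and wholly above it in B16-F10, while 10.9% of all tested pairs lay wholly below and 13.5% wholly above. The means were higher with LEN in KLN205 (36.3, 38.9 and 47.3 TPM in NT, 41.0, 42.8 and 65.8 TPM in LEN tumors, +0.26, adjusted p = 0.638) and in B16-F10 (+0.21, SE 0.0615). The B16-F10 value is a description, since the family was chosen for the Sparcl1 level of that model. KLN205 groups overlapped, and those of B16-F10 did not.

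Endothelial genes were lower with LEN in the mean of every model, and Sparcl1 was set against them because it is known as a vessel product. All 10 genes of an endothelial list were called lower in the 72-tumor fit (median -0.79), led by the junction proteins Cdh5 (-1.17, adjusted p = 2.41e-21) and Cldn5 (-1.09), and their mean fell by 0.84 on the log2 scale (SE 0.0439), with a lower mean in 12 of 12 models. Relative to this mean, Sparcl1 was +0.18 with LEN (SE 0.0482), with a negative difference in 7 models and a positive difference in 5. This value is a description, since it holds the Sparcl1 levels of B16-F10 for which the family was chosen. Without B16-F10 it was +0.09 and missed the threshold (unadjusted limma p = 0.0773, and p = 0.275 in a two-sided permutation test that exchanged LEN and NT labels within models, added after the data were seen). It was +0.10 without BNL, +0.08 without KLN205 and, with a pseudocount of 0.1, +0.36. From treatment-naïve to NT tumors, with no drug, the same measure was +0.27 (SE 0.0384), with a positive difference in 8 models, +0.26 without B16-F10 (permutation p = 0.00165) and +0.15 without BNL. Both comparisons share the NT tumors, and whether their values differ was not tested. Sparcl1 minus the endothelial mean was highest in B16-F10 in all 3 groups, at 4.21 ± 0.0554 in treatment-naïve, 4.57 ± 0.178 in NT and 5.65 ± 0.0708 in LEN tumors (log2 units, SD, n = 3). In BNL it was 2.54, 4.18 and 5.21, and in LEN tumors it ranged from 0.53 in MC38 to 3.37 in KLN205 among the other 10 models. B16-F10 and BNL thus carried the most Sparcl1 for their endothelial genes on day 8. Of 8 mural genes, which mark pericytes and smooth muscle, 7 were called lower and 1 higher (median -0.45), with Mcam at -0.84 and Kcnj8, a pericyte potassium channel, at -0.75. Over all genes in this fit, 9.87% were called lower and 13.7% higher.

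**Figure D5:**
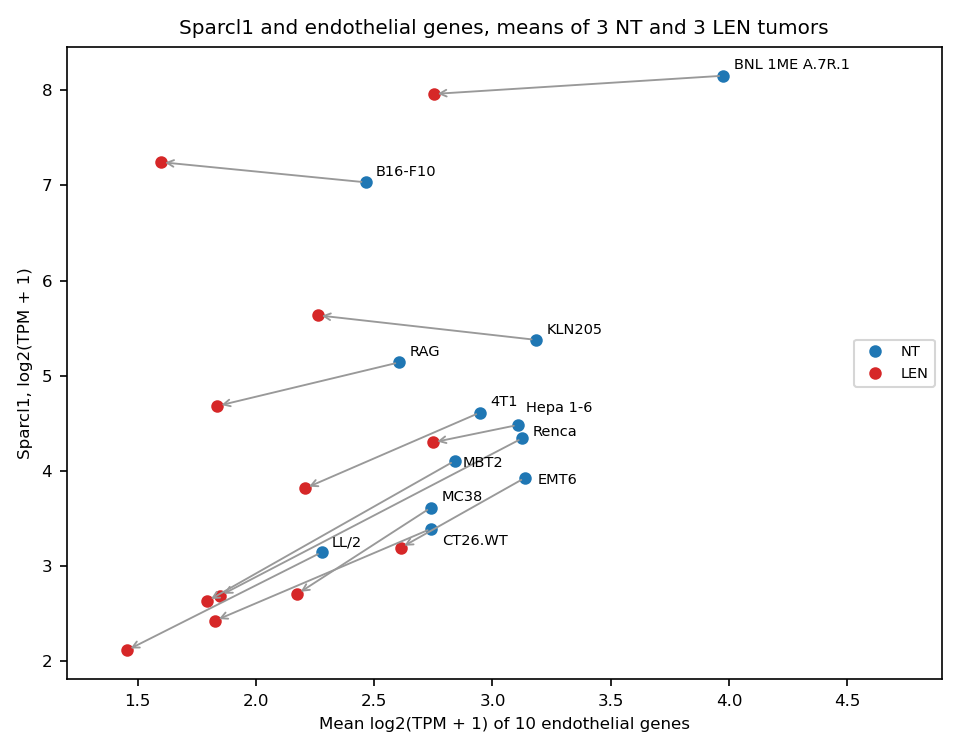
Sparcl1 against the mean of 10 endothelial genes, both as log2(TPM + 1), with a blue point for the mean of 3 NT tumors, a red point for the mean of 3 LEN tumors and an arrow from NT to LEN for each model. All 12 arrows point to the left, toward lower endothelial genes, but the arrows of B16-F10, BNL and KLN205 run nearly level, with Sparcl1 differences of +0.21, -0.19 and +0.26.

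Sparc, the collagen-binding protein, was called lower with LEN in Renca alone when models were fitted singly. There the NT tumors held 228, 244 and 299 TPM and the LEN tumors 116, 138 and 157 TPM (-0.90, SE 0.143, adjusted p = 0.00895). The next most negative difference was in KLN205 (-0.73, SE 0.282, adjusted p = 0.322), where 2 of the LEN tumors, at 177 and 177 TPM, were below all NT tumors and the third, at 357 TPM, was among them. The LEN group lay wholly below the NT group in 7 of 12 models and wholly above it in B16-F10 alone. In EMT6, CT26.WT and Hepa 1-6 the groups overlapped (-0.10, -0.20 and +0.19). Fstl1 had a lower mean with LEN in 9 models and a higher mean in 3, and the groups did not overlap in RAG and MC38, where LEN was lower, and in B16-F10, where it was higher. These 3 of 12 models are near the share over all pairs, of which 10.9% lay lower and 13.5% higher without overlap. Hepa 1-6 had the most positive Fstl1 difference (+0.73, SE 0.313, adjusted p = 0.216), with NT tumors at 31.7, 38.1 and 78.0 TPM and LEN tumors at 66.9, 80.3 and 82.9 TPM.

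The response of B16-F10 to LEN was contrasted with the mean response of the other 11 models, and no other model was contrasted in this way. The LEN effect of Sparc in B16-F10 was 1.16 log2 units above that mean (SE 0.19, adjusted p = 1.28e-05) and that of Smoc2 1.07 above (SE 0.252, adjusted p = 0.00238), where 7.54% of all genes were called higher in this contrast (limma, Benjamini-Hochberg). For Fstl1 the difference was +0.66 (SE 0.315, adjusted p = 0.26). Sparcl1 was 0.95 above (SE 0.211), which is a description, since the family was chosen for the Sparcl1 level of B16-F10 in the same tumors. Another model had a higher effect for Sparcl1 (+0.26 in KLN205 against +0.21 in B16-F10), Smoc2 (+1.60 in BNL against +1.13) and Fstl1 (+0.73 in Hepa 1-6 against +0.48), whereas for Sparc the next model was Hepa 1-6 at +0.19 against +0.77. Sparc was 285, 286 and 292 TPM in NT and 440, 493 and 551 TPM in LEN tumors of B16-F10 (+0.77, SE 0.0855, adjusted p = 0.00386), and 8.57% of the genes tested in that model were called higher. Fstl1 was 22.1, 22.9 and 23.1 TPM in NT and 31.04, 32.0 and 32.7 TPM in LEN tumors (+0.48, SE 0.0623, adjusted p = 0.00614). Smoc2, a calcium-binding BMP antagonist, was 0.26, 0.48 and 0.75 TPM in NT and 2.12, 2.23 and 2.38 TPM in LEN tumors (+1.13, SE 0.194, adjusted p = 0.0156). Smoc2 reached the minimum on TPM there only through its LEN tumors, so this call is no support. With no minimum on TPM its adjusted p was 0.019. In all 3 genes the LEN tumors lay wholly above the NT tumors, although the Smoc2 call was lost without NT replicate 2 (adjusted p = 0.0534) or LEN replicate 2 (0.0605), 3 (0.0577) or 5 (0.0609), and the Fstl1 call in the fit of all models (0.413). Host-cell genes moved with these differences. From NT to LEN tumors of B16-F10, the sum of 8 fibroblast genes went from 129 to 155 TPM up to 466 to 621 TPM (7 of 7 tested called higher, among them collagen genes that are also on the list of SPARC ligands), that of 6 macrophage genes from 60.3 to 89.0 up to 196 to 280 TPM (6 of 6 higher) and that of 6 skeletal muscle genes from 2.53 to 22.8 up to 131 to 209 TPM (6 of 6 higher). Endothelial genes went the other way, from 46.7 to 66.6 down to 26.9 to 30.0 TPM (5 of 9 tested called lower, against 2.42% of all genes in that model). The part of these host cells in the rise of Sparc, Fstl1 and Smoc2 was not tested. The treatment-naïve B16-F10 tumors, with 304, 305 and 399 TPM of Sparc and 277 to 417 TPM of fibroblast genes, lay between the NT and LEN tumors.

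In BNL both SMOC genes were called higher with LEN. NT tumors held 0.40, 1.75 and 2.09 TPM and LEN tumors 4.82, 6.34 and 6.76 TPM of Smoc2 (+1.60, SE 0.31, adjusted p = 0.00904), and 26.3% of the genes tested in BNL were called higher. Smoc1, the other SMOC protein gene, was 0.71, 1.15 and 1.60 TPM in NT and 2.28, 2.69 and 2.80 TPM in LEN tumors (+0.76, SE 0.2, adjusted p = 0.028). Its call was lost without NT replicate 1 (adjusted p = 0.0707), NT replicate 4 (0.0747), LEN replicate 4 (0.0799) or LEN replicate 5 (0.0759). The Smoc1 call was also lost after rescaling by the upper quartile (+0.60, adjusted p = 0.0653) or over protein-coding genes (+0.64, 0.0504). Spock2, a testican proteoglycan, was 10.2, 11.2 and 11.2 TPM in NT and 6.48, 7.43 and 8.38 TPM in LEN tumors (-0.50, SE 0.109, adjusted p = 0.0139), where 5.21% of genes were called lower, and without NT replicate 4 its adjusted p was 0.0538. Sparcl1 (-0.19, adjusted p = 0.209), Sparc (-0.21, adjusted p = 0.0577) and Fstl1 (-0.02, adjusted p = 0.875) did not pass in BNL. The median of all genes in this comparison was +0.17. Between the same groups, skeletal muscle genes went from 38.0 to 116 up to 1595 to 2327 TPM, 6 epithelial genes from 18.0 to 46.1 up to 1069 to 1255 TPM, fibroblast genes from 8113 to 9196 down to 6568 to 7505 TPM and endothelial genes from 177 to 203 down to 78.1 to 91.4 TPM. Whether these cell types carried the SMOC and SPOCK differences was not tested.

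In Renca, where Sparcl1 and Sparc fell with LEN, other host-cell genes were lower as well. Endothelial genes went from 99.0 to 125 TPM in NT to 39.6 to 42.9 TPM in LEN tumors (8 of 9 tested called lower), macrophage genes from 648 to 729 to 336 to 360 TPM (5 of 6 lower) and mural genes from 101 to 134 to 51.4 to 63.8 TPM (5 lower and 1 higher of 8). Fibroblast genes overlapped between the groups, at 367 to 767 and 193 to 416 TPM, with 1 of 7 tested called lower. Of the 15832 genes tested in Renca, 7.15% were called lower, and 777 genes were called higher. Fstl1 in Renca, at 13.0, 18.4 and 24.1 TPM in NT and 8.17, 11.5 and 13.8 TPM in LEN tumors, did not pass (-0.67, adjusted p = 0.136). The part of each cell type in these falls was not tested.

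Genes that act with the family were counted against the 9.87% of all genes called lower and 13.7% called higher with LEN, and counts near these shares are no result about a list. Of 8 collagen ligands and chaperones of SPARC, 3 were called lower with LEN and none higher over the 12 models (median -0.20, against -0.0019 over all genes tested), namely the basement membrane collagen genes Col4a2 (-0.71, adjusted p = 2.03e-14) and Col4a1 (-0.69) and the fibrillar collagen gene Col1a1 (-0.29, adjusted p = 0.023). Of 12 receptors and processing enzymes of SPARC and SPARCL1, 2 were lower and 4 higher, with Stab1, a scavenger receptor that takes up SPARC, at -0.62 (adjusted p = 7.26e-11) and Tgm2, a transglutaminase that crosslinks matrix proteins, at +0.55. Of 14 tested BMP partners of SMOC proteins and FSTL1, 2 were lower and 6 higher, including the inhibitory Smad7 (+0.24, adjusted p = 0.000188) and the endothelial coreceptor Eng (-0.28). Of 3 FSTL1 receptors 1 was called, Cd14 (+0.38, adjusted p = 4.52e-06), while Tlr4 did not pass (+0.04). Of 5 tested proteases related to testicans, the membrane-bound Mmp15 was lower (-0.28) and Ctsl did not pass (+0.11, adjusted p = 0.0651). Of 19 tested genes for other matricellular proteins, 2 were lower and 6 higher, with the thrombospondin Thbs4 at +0.81 and osteopontin (Spp1) at +0.38. In the related genes outside the rule, Fstl3 was higher (+0.39) and Igfbp7, a vessel-associated relative, lower (-0.40), and Fstl4, Fstl5 and Spock3 were too low to test. The pathway lists were drawn up with results of these data known, so their counts describe these tumors.

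Cell-type lists gave the setting of these means, beside the same 9.87% of all genes called lower and 13.7% called higher. With LEN, 5 of 6 macrophage genes were called lower (Csf1r -0.45, C1qa -0.39), and 6 of 6 skeletal muscle genes were called higher (median +1.01), with Ckm at +1.15 and Myh4 at +1.13. Of 6 epithelial genes 4 were called higher (Krt19 +0.78, Cdh1 +0.55). Of 8 genes that mark fibroblasts, which are known to make Sparc and Fstl1, 2 were lower and 1 higher (Fap -0.33, Dcn +0.36). The other lists held 1 called gene in each direction for adipocytes (Adipoq +0.54, Fabp4 -0.42), and 1 called gene each for hepatocytes (Trf -0.39, Ttr not called at -0.05), keratinocytes (Krt14 +0.59, Krt10 not called at +0.44), melanocytes (Gpnmb +0.37, Tyr not called at -0.03) and Schwann cells (Mbp +0.18). The part of skeletal muscle or any other cell type in the mean effects of the family was not tested.

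The NT tumors were also compared with the treatment-naïve tumors, to describe the family in untreated tumors at about 100 mm3 and on day 8. The groups were collected at different points from different mice, so growth and collection cannot be told apart. This comparison shares its NT tumors with the LEN comparison, so a tumor that is high in NT raises the values of this comparison and lowers those of the LEN comparison. Averaged over 12 models Fstl1 was the only family gene called, and it was lower on day 8 (-0.26, SE 0.096, limma, Benjamini-Hochberg adjusted p = 0.0366), with a lower mean in 7 of 12 models. Of the 17428 genes tested, 11.5% were called lower and 17% higher. The Fstl1 call was close to the threshold, and its adjusted p was above 0.05 without any 1 of 12 tumors (0.0501 to 0.0639) or any 1 of 7 models, and it was 0.296 without Renca (-0.15), 0.12 without EMT6 (-0.20), 0.0984 without Hepa 1-6 (-0.21), 0.0768 without 4T1 (-0.23), 0.0698 without MBT2 (-0.24), 0.0647 without B16-F10 (-0.25) and 0.0578 without LL/2 (-0.26). The 12 tumors were treatment-naïve 4T1 replicate 1, CT26.WT replicate 2, EMT6 replicate 3, MC38 replicate 3, KLN205 replicate 2 and Hepa 1-6 replicate 3, and NT CT26.WT replicate 1, Hepa 1-6 replicates 2 and 3, 4T1 replicate 3, Renca replicate 2 and EMT6 replicate 2. Smoc1 was just short of the threshold (+0.09, SE 0.0359, adjusted p = 0.0541). It passed without BNL (+0.11, adjusted p = 0.0225), RAG (+0.11, 0.0212), EMT6 (+0.12, 0.0206), B16-F10 (+0.11, 0.0349) or Hepa 1-6 (+0.11, 0.028), and without any 1 of 13 tumors (adjusted p 0.02 to 0.0496). These were treatment-naïve RAG replicate 1, 4T1 replicate 1, EMT6 replicate 1, Renca replicate 2, MC38 replicate 2, MBT2 replicate 2 and Hepa 1-6 replicate 2, and NT 4T1 replicate 1, MBT2 replicate 5, BNL replicate 1, Renca replicate 3, LL/2 replicate 2 and EMT6 replicate 4. Sparcl1 (+0.09, adjusted p = 0.257), Sparc (-0.08, adjusted p = 0.325) and Smoc2 (-0.06, adjusted p = 0.559) did not pass. Without B16-F10 the Sparcl1 value was +0.08 (adjusted p = 0.367). Smoc2 entered this test only through KLN205. Sparc passed without BNL (-0.18, adjusted p = 0.0332). Sparcl1 was under the threshold without EMT6 (+0.17, adjusted p = 0.0177) or LL/2 (+0.19, adjusted p = 0.0225). These Sparcl1 values are descriptions, since they hold the B16-F10 tumors for which the family was chosen. Spock1 and Spock2 were too low to test. Rescaling by the upper quartile turned the balance of all calls from 2002 lower and 2971 higher to 3524 lower and 1419 higher, and rescaling over protein-coding genes to 3851 lower and 1199 higher.

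The difference between treatment-naïve and NT tumors varied between models for Sparc (F test, adjusted p = 1.96e-05), Smoc1 (0.000113) and Fstl1 (0.000555). Of all genes, 66.5% passed the same test. It also varied for Sparcl1 over the 11 models other than B16-F10 (adjusted p = 1.11e-08), where 65.7% passed. Smoc2 gave 0.0269, but it reached the minimum on TPM only through KLN205, where it is high. Nothing is read from that value. In the models fitted alone 9 of 47 tested pairs passed, 4 lower and 5 higher on day 8, against 8.02% of all pairs of gene and model. These calls were in BNL, Renca, KLN205 and LL/2. Read from the fit of all 71 untreated tumors, 13 of 60 pairs passed, against 13.9% of all pairs. That reading, in which Spock2 was not tested, added Smoc1 in 4T1 (+0.61, adjusted p = 0.000432) and LL/2 (+0.59, adjusted p = 0.000551), Sparcl1 (-0.78, adjusted p = 0.00293) and Fstl1 (-0.97, adjusted p = 0.0197) in EMT6, and Smoc2 in KLN205 (+0.77, adjusted p = 0.0126). The Smoc2 call is no support, since that gene entered the fit only through KLN205.

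In BNL 4 of the 6 family genes tested rose. Sparcl1 went from 72.2, 78.7 and 80.0 TPM in treatment-naïve to 245, 298 and 311 TPM in NT tumors (+1.87, SE 0.101, adjusted p = 0.000433). Sparc went from 562, 592 and 635 TPM to 1151, 1175 and 1287 TPM (+1.01, SE 0.0746, adjusted p = 0.000643). Fstl1 also rose, from 66.3, 71.4 and 74.1 TPM to 130, 146 and 158 TPM (+1.02, SE 0.0886, adjusted p = 0.000873). Spock2 rose from 2.27, 2.74 and 2.77 TPM to 10.2, 11.2 and 11.2 TPM (+1.73, SE 0.105, adjusted p = 0.00055). Smoc1 and Smoc2 did not pass (-0.11 and -0.48). In BNL 23.6% of all genes were called higher, with a median over all genes of +0.17. Fibroblast genes rose with these 4 genes there, from 4414 to 4682 TPM up to 8113 to 9196 TPM (6 of 8 called higher), as did mural genes (6 of 8) and all 8 collagen ligands and chaperones of SPARC. Skeletal muscle genes went down from 287 to 663 TPM to 38.0 to 116 TPM, and epithelial genes from 166 to 209 TPM to 18.0 to 46.1 TPM. The part of these cells in the rise was not tested.

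Renca moved the other way. Fstl1 went from 47.8, 49.7 and 62.5 TPM in treatment-naïve to 13.0, 18.4 and 24.1 TPM in NT tumors (-1.51, SE 0.213, adjusted p = 0.00991), and Sparc from 492, 511 and 628 TPM to 228, 244 and 299 TPM (-1.08, SE 0.136, adjusted p = 0.00688). Sparcl1 went from 27.5, 27.6 and 35.5 TPM to 17.8, 18.2 and 22.3 TPM (-0.61, SE 0.14, adjusted p = 0.0394), but its call was lost without any 1 of the 6 tumors (adjusted p 0.0557 to 0.111). The call was also lost without a mean-variance trend (adjusted p = 0.0585) or a minimum on TPM (0.078). Rescaling by the upper quartile (-0.49, adjusted p = 0.0615) or over protein-coding genes (-0.49, 0.0616) lost it too. Of all genes tested in Renca, 7.08% were called lower. Fibroblast genes dropped from 1608 to 2483 TPM to 367 to 767 TPM (8 of 8 called lower) and endothelial genes from 168 to 225 TPM to 99.0 to 125 TPM (9 of 10 lower), and the part of these cells was not tested.

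When KLN205 and LL/2 were fitted alone, Sparcl1 was the family gene that passed. In KLN205 it rose from 18.0, 23.5 and 32.8 TPM to 36.3, 38.9 and 47.3 TPM (+0.73, SE 0.212, adjusted p = 0.0429), where 28.3% of all genes were called higher and the median of all genes was +0.28. The KLN205 call was lost without treatment-naïve replicate 1 (adjusted p = 0.0766) or 3 (0.0989) and without NT replicate 2 (0.0913), 3 (0.0843) or 4 (0.131), and the value was +0.43 after rescaling by the upper quartile (adjusted p = 0.473) and +0.41 over protein-coding genes (0.436). That call was also lost without a mean-variance trend (adjusted p = 0.0642) or a minimum on TPM (0.0885). In LL/2 Sparcl1 went from 13.9, 16.2 and 18.5 TPM to 6.90, 7.41 and 9.45 TPM (-0.95, SE 0.15, adjusted p = 0.021), where 2.02% of all genes were called lower. Its call was lost without treatment-naïve replicate 1 (adjusted p = 0.0511) or 3 (0.092) and without NT replicate 1 (0.0724) or 3 (0.0855). Endothelial genes stood at 62.2 to 87.3 TPM in treatment-naïve and 87.5 to 123 TPM in NT tumors of KLN205, and at 64.7 to 90.3 and 43.9 to 52.3 TPM in LL/2, so they were apart in the same direction as Sparcl1 in both models. Mural genes in LL/2 went from 70.8 to 87.6 TPM to 31.4 to 33.9 TPM (3 of 8 called lower). Their part in the Sparcl1 differences was not tested.

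Over all models, 7 of 10 endothelial genes, 4 of 8 fibroblast genes and 6 of 6 skeletal muscle genes were called lower on day 8 without treatment, and none of these lists held a gene called higher, beside 11.5% of all genes called lower and 17% higher. Against the same shares, among genes that act with the family 1 of 8 collagen ligands and chaperones was lower, 1 of 12 receptors and processing enzymes lower and 3 higher, 3 of 14 BMP partners lower and 3 higher, 2 of 5 testican targets lower and 1 higher, and 7 of 19 other matricellular genes lower and 3 higher. The remaining lists had 1 of 8 mural genes, 2 of 6 macrophage genes, 2 of 6 epithelial genes, 4 of 4 adipocyte genes, 1 of 8 melanocyte genes and 1 of 4 Schwann cell genes called lower, 1 of 3 FSTL1 receptors and 1 of 2 related genes outside the rule called higher, and no hepatocyte or keratinocyte gene called.

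Within models the family split into genes that varied together and genes that did not. After the mean of each model was taken off, Sparc and Fstl1 correlated with r = 0.836 over all tumors of the series, which placed Fstl1 at rank 10 of 13268 protein-coding genes in likeness to Sparc. Sparcl1 and Sparc correlated with r = 0.704 (rank 72) and Sparcl1 and Fstl1 with r = 0.608 (rank 256). Smoc1 was weakly negative against Sparcl1 (-0.12), Sparc (-0.14) and Fstl1 (-0.12), and Smoc2 lay between (0.31 with Sparcl1, 0.42 with Sparc and 0.38 with Fstl1). Only the mean of the model was taken off, so differences between the groups of a model are part of these values. Tumors of a group share treatment, and all tumors share the composition of TPM, so these values are descriptions.

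By the same measure, the 5 genes most like Sparcl1 were Pdgfrb, the PDGF receptor of pericytes (r = 0.820), the vitamin B12 carrier Tcn2 (0.815), the laminin chain Lama4 (0.799), the selenium carrier Selenop (0.795) and Mcam (0.795). For Sparc they were the matrix proteoglycan Bgn (0.874), Slit3 (0.856), the procollagen protease Adamts2 (0.854), Loxl1 (0.850) and Adamts12 (0.850). Over the 36 means of model and group, Sparcl1 was most like Tcn2 (0.861), Slc43a1 (0.833) and Lama4 (0.829), and Sparc was most like Creb3l1 (0.896), Nrep (0.856) and Adamts4 (0.844). Fstl1 was most like the fibrillin gene Fbn1 (0.895), Gm9913 (0.887) and Clip3 (0.845) over the same means. Spock2 was most like Ret (0.963), Gad1 (0.951) and Ptgfr (0.936), Smoc1 like Sf3b3 (0.903), Men1 (0.896) and Sugp2 (0.887), Smoc2 like Sprr2a2 (0.840), Epha4 (0.822) and Pard6g (0.817), and Spock1 like Havcr1 (0.831), Rtn4r (0.805) and Btg4 (0.804). For the low genes such a value can rest on 1 or 2 models, as for Spock2 and BNL.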

How the data were processed

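Expression was measured by RNA sequencing of rRNA-depleted total RNA from 35 treatment-naïve, 36 NT and 36 LEN tumors, grouped by the model and treatment in the labels. The deposited values are TPM per gene, which the authors made from reads trimmed with Trimmomatic 0.36 and, per the submitters' processing notes, with STAR 2.5.2b, RSEM 1.2.31, Ensembl release 88 and mm10. TPM keeps no sequencing depth, so depth per tumor is unknown and no counting error can be given. It also divides each tumor's total among all genes, so a large change in abundant noncoding RNA shifts every other value.

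Genes with a mean of at least 1 TPM were tested on log2(TPM + 1) by linear models in limma 3.58.1 (R 4.3.3), with variances moderated along their trend with the mean, with Benjamini-Hochberg adjustment over all genes tested and a threshold of 0.05. Mean effects over the 12 models were contrasts of 24 groups, from 72 day 8 tumors for LEN minus NT and 71 untreated tumors for NT minus treatment-naïve. An F test asked whether the effect differed between models, and each model was also fitted alone. Replicates were different mice, so p-values measure the spread between tumors. No pair of tumors held near-identical values. For Sparcl1 minus the endothelial mean, group labels were also permuted within models 100000 times, and the NT minus treatment-naïve value, its alternatives and the F tests without B16-F10 were added after the data were seen. The scripts were tested on simulated data. Alternatives were a pseudocount of 0.1, a minimum of 5 TPM or none, rescaling by the upper quartile or over the 21764 protein-coding genes of GENCODE M21 (50376 of 50686 genes had a record there), no mean-variance trend, a replicate block, and leaving out each tumor or model.

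The genes named are the 7 family genes, the 3 protein-coding genes (mean of at least 1 TPM) with the highest Pearson r to each over 36 group means, for Sparcl1 and Sparc also the 5 with the highest r over all tumors after model means were taken off, the 2 genes of each list with the smallest adjusted p for LEN, and the level of Spock3. Col1a1, Fstl4 and Fstl5 fall outside this rule and were named after their values were seen. A gene that this rule names is not reported here. Family genes and lists were chosen with earlier results of these data known. Tables and figures were made with Python 3.11.15, numpy 2.4.6, pandas 2.3.3 and matplotlib 3.10.9, and coding sequences were aligned with biopython 1.88.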

Additional observations from a re-analysis of the deposited data

Results flagged for a closer look

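The results below were flagged because the same contrast gave different effects in different models by a test of that difference. Of all genes tested, 35.3% passed this test for LEN and 66.5% for NT against treatment-naïve tumors. A pass in the second comparison therefore does not set a gene apart. Without B16-F10 the shares were 29.8% and 65.7%. Between models, the LEN effect differed for Smoc2 (F test, limma, adjusted p = 1.79e-05), Sparc (5.47e-05) and Smoc1 (0.0167). Spock2 gave 0.0462 in the same test, but it passed the minimum on TPM only through BNL, where it is high, so nothing is read from it. For NT against treatment-naïve tumors the difference varied between models for Sparc (adjusted p = 1.96e-05), Smoc1 (0.000113) and Fstl1 (0.000555). Smoc2 gave 0.0269 there, but it reached the minimum on TPM only through KLN205, where it is high, so nothing is read from it. For Sparcl1 the same tests gave 4.05e-07 and 2.65e-09, which are descriptions because they hold the B16-F10 tumors for which the family was chosen, and without B16-F10 the adjusted p was 2.07e-05 for LEN and 1.11e-08 for NT against treatment-naïve tumors. Against the mean effect of the other 11 models, the LEN effect in B16-F10 was higher by 1.16 log2 units for Sparc and 1.07 for Smoc2. In this contrast 7.54% of all genes were called higher. For Sparcl1 it was higher by 0.95, given as a description because the family was chosen for Sparcl1 in B16-F10. Groups of 3 tumors were too small for a test of single outlying tumors.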

How the results depend on the processing

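No result changed direction while called, and the mean LEN effects kept their call under every alternative for Sparcl1 and Sparc. Rescaling by the upper quartile gave 3163 genes lower with LEN and rescaling over protein-coding genes 2807, against 1712. The replicate block gave 1280 genes higher, and leaving out a tumor or model gave 1440 (without BNL) to 3262 (without 4T1 LEN replicate 4), against 2371. Family genes with a LEN effect that differed between models numbered 5 (with Spock2 and the Sparcl1 test that holds B16-F10), but 3 with a pseudocount of 0.1 or after upper-quartile rescaling, 2 with a minimum of 5 TPM or the replicate block, and 3 to 6 over the leave-outs, with 6 without Hepa 1-6 NT replicate 4, 4T1 NT replicate 3 or EMT6 NT replicate 4. The contrasts of the joint fit called 15 pairs of gene and model, among them Spock2 in BNL, which entered only through that model, against 8. Over the leave-outs, the number of family genes called with LEN ranged from 2 to 4 (without 4T1), the Smoc1 effect from 0.028 to 0.11, the Smoc2 effect from 0.0186 to 0.21, and Sparcl1 minus the endothelial mean from 0.0842 to 0.23. Under the other settings that last value ran from 0.13 (replicate block) to 0.36 (pseudocount of 0.1), and from treatment-naïve to NT tumors it ran from 0.15 to 0.33 over all alternatives.

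For NT minus treatment-naïve, Smoc1 passed without a mean-variance trend (0.0897, adjusted p = 0.0424), and Fstl1 did not pass without a minimum on TPM (-0.26, adjusted p = 0.0625) or with the replicate block (-0.30, adjusted p = 0.076). The number of family genes called was 2 without the trend, 0 with the block in limma and 0 to 3 (without BNL) over the leave-outs, against 1. Leave-outs ranged from 0.0422 to 0.12 for Smoc1, -0.38 to -0.15 for Fstl1, -0.0684 to 0.19 for Sparcl1 and -0.18 to 0.0109 for Sparc. Genes called lower numbered 951 with a minimum of 5 TPM, 3524 after upper-quartile rescaling, 3851 over protein-coding genes and 830 with the block, against 2002. Genes called higher numbered 1419, 1199 and 1082 under the last 3 of these and 1765 (without KLN205) to 3891 (without CT26.WT) over the leave-outs, against 2971. Family genes that differed between models numbered 3 with a minimum of 5 TPM or the block, against 5 (with Smoc2 and with the Sparcl1 test that holds B16-F10). The Sparcl1 level of B16-F10 minus the next highest model, 0.54 log2 units in treatment-naïve tumors, was 0.34 after upper-quartile rescaling and 0.23 over protein-coding genes, and in LEN tumors it was -0.53 after upper-quartile rescaling, against -0.72. Beyond what the settings remove by construction, the cause of these shifts was not tested. Among alternatives to the 17 calls of single genes within models, 182 kept the call and 35 lost it. Replicate numbers did not pair the tumors, since the deviations of tumors with the same number correlated with a median r of 0.0142 over 20 pairs for LEN and NT and -0.0158 over 25 pairs for NT and treatment-naïve, so a call lost under the block is no sign of a weaker effect. Unknown depth limits what can be said of Smoc1, Smoc2, Spock1 and Spock2 most, since their levels were near or below 1 TPM in most tumors.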
